A study of Drosophila melanogaster with 12 samples.

Results

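To describe what LaminB knockdown did to the ranking and width of RNA polymerase II (Pol II) peaks, the peak lists of the 2 dsLaminB chromatin immunoprecipitation (ChIP) libraries were set against those of the 2 mock libraries. These are 4 of the 6 immunoprecipitated libraries and of 12 samples in the whole series. They were chosen by treatment, as the sample titles give it, and no measured value entered the choice. Of 18277 annotated genes, 2751 had a peak in all 4 lists and were ranked; they rest on 2240 distinct sets of peaks, since neighbouring genes can share a peak.

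All cells were Kc167, a Drosophila melanogaster cell line derived from female embryos that has features of hemocytes (blood cells). dsLaminB cells were nucleofected with long double-stranded RNA against LaminB. The siAGO2 cells, used here only side by side, were nucleofected with siRNA against AGO2. Mock cells went through nucleofection with no RNA at all, so in dsLaminB against mock the depletion of LaminB and the delivery of RNA cannot be told apart. Cells were collected 3 days after transfection. The antibody was 8WG16, directed to the hypophosphorylated form of Pol II. The knockdown was checked by Western blot, per the labels. Each group has 2 libraries. No label says whether they came from separate cultures, so p-values measure only the spread between these libraries, which may be technical.

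LaminB, the product of Lam, is the B-type lamin of Drosophila, a filament protein that lines the inner face of the nuclear envelope. The lamina contacts long, mostly silent, gene-poor stretches of chromatin. Pol II with an unphosphorylated tail is recruited to promoters, and at many fly genes, the heat shock genes being the classical example, polymerase initiates and then pauses a short way downstream of the transcription start site (TSS) until it is released into elongation.

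The dsLaminB lists were shorter and their peaks weaker and narrower than the mock lists. They held 2531 and 4124 peaks in dsLaminB replicates 1 and 2, against 5965 and 5601 in mock replicates 1 and 2, and put a peak on 2850 and 4702 genes in dsLaminB, against 7296 and 6852 in mock. The median −log10 q of a peak was 7.43 and 8.22 in dsLaminB, against 15.7 and 12.6 in mock. The numbers of reads behind the lists are unknown, so no value could be scaled to depth, and a q-value moves with depth. For this reason genes are compared by rank. Each gene took the highest −log10 q of the peaks over its body, and this value was turned into a percentile within its own library among the 2751 genes (0 lowest, 100 highest). A gene weak in mock is among the 2751 only if both dsLaminB lists kept a peak on it. This selection can favour rises from the bottom of the mock ranking. dsLaminB replicate 1 stands apart: 3 of its peaks, at w and su(Hw), had fold enrichments of 46.9, 44.7 and 32.3, while its next highest was 17.8. Of 9 hemocyte marker genes, 7 had a peak in all 4 libraries, including srp, ush and Hml, and NimC1 had none in any library. Of 13 other markers, 6 had none in any library and 4 (elav, Mef2, vas and shg) had a peak in all 4. The 13 include PPO1, PPO2 and lz, markers of crystal cells, which are themselves a kind of hemocyte. PPO1 and PPO2 are among the 6, so these counts do not set blood cells apart from other cell types. A Pol II peak at Lam does not measure the knockdown, which acts on RNA: Lam was at rank 3740 of 4124 in dsLaminB replicate 2 and had no peak in dsLaminB replicate 1, against ranks 3546 of 5965 and 3931 of 5601 in mock.

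The gene list with the largest share of called members was that of the heat shock genes. Hsp22, Hsp23, Hsp27 and Hsp67Bc, which encode small chaperones that hold unfolded proteins, and Hsp68, an inducible relative of Hsp70, all fell in rank in dsLaminB against mock. Among the genes that moved the other way, RpLP1, RpL28, RpL14 and sta (ribosomal proteins), eEF1alpha1 (which brings aminoacyl-tRNA to the ribosome) and Hsp83 (the fly Hsp90) rose in rank. The promoters of 3 genes that fell and 3 that rose are shown because the peaks that moved lie over them. Each runs from 250 bases before to 50 bases after the TSS in the dm6 assembly (genome and annotated starts of the reference copy), 5′ to 3′ on the gene's own strand. Capitals mark TATAAA, the letters of a TATA box, in all but RpL14, matches to the heat shock element (inverted repeats of NGAAN, searched on both strands) in Hsp68, and TTCTTT, a pyrimidine stretch typical of ribosomal protein promoters, in RpL28 and RpL14.

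Hsp23, 3L:9381632-9381931, plus strand: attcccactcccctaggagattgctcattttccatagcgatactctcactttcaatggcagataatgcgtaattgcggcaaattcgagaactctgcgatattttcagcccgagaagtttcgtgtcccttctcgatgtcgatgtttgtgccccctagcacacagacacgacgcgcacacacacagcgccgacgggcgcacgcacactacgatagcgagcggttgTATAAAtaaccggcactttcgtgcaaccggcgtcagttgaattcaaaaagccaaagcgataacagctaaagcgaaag
Hsp27, 3L:9383813-9384112, plus strand: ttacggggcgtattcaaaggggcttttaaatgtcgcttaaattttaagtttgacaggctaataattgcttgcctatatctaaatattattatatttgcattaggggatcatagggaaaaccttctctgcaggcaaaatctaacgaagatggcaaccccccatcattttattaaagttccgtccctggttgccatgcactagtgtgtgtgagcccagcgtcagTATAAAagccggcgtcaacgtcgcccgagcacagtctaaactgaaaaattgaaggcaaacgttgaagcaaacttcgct
Hsp68, 3R:24057261-24057560, minus strand: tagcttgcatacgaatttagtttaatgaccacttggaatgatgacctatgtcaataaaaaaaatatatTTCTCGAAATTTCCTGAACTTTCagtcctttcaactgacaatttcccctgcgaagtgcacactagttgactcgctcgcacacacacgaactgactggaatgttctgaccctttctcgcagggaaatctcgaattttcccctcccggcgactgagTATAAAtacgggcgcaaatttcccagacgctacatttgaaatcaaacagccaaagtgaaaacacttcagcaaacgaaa
Hsp83, 3L:3192966-3193265, plus strand: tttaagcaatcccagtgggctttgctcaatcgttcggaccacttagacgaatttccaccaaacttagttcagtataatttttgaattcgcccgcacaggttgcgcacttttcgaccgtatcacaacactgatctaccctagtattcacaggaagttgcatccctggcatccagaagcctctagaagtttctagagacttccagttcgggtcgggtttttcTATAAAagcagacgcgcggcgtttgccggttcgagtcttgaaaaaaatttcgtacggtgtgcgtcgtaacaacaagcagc
RpL28, 3L:3222911-3223210, minus strand: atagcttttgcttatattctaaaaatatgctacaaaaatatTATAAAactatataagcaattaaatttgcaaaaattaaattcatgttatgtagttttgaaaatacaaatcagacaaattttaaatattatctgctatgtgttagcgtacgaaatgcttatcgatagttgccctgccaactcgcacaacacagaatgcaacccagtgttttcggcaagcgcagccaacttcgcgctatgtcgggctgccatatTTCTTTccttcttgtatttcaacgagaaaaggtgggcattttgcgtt
RpL14, 3L:8600756-8601055, plus strand: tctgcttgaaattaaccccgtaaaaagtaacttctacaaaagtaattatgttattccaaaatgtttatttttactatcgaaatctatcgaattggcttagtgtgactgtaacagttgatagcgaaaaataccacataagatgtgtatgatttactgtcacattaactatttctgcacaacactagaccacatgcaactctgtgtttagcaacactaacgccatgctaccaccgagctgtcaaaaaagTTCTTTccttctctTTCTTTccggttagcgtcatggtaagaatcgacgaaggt

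The TSS of RpL14 lay under a peak in 3 of the 4 libraries and those of the other 5 in all 4. The Hsp68 promoter held 3 overlapping matches to the heat shock element. The promoters of Hsp23, Hsp27 and Hsp83 held none in this spelling, which says only that these letters do not occur in the window. In RpL28 the marked TATAAA lies far upstream of the TSS, near the start of the window. At any position in the window, TATAAA was found on the gene's strand in 12 of 31 promoters of genes that fell (38.7%). It was in 9 of 51 of genes that rose (17.6%), beside 25.2% of all 2688 promoters of ranked genes that were read. A match thus need not be a TATA box. Among the 12 are Hsp68 and the 3L neighbours Hsp22, Hsp23, Hsp27, Hsp67Bc and CG4456, so the share of 38.7% leans on these related loci. TATCGAT, the core of the DNA replication-related element, was found on either strand in 22.6% of the promoters of genes that fell and 13.7% of those of genes that rose, beside 20.9% of all. TTCTTT was in 12.9% and 19.6%, beside 17.1% of all. The promoters of RpLP1 and sta, the ribosomal protein genes that rose but are not shown, held no TTCTTT. These shares are a description of the called genes and were not tested.

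Hsp23 (FBgn0001224, 3L:9381882-9382765) was at percentile 43.9 and 19.3 in dsLaminB replicates 1 and 2, against 92.9 and 99.4 in mock replicates 1 and 2. Its strongest peak ranked 1338th and 2118th in the dsLaminB lists, against 171st and 14th in the mock lists. Both dsLaminB values lie below both mock values, with a difference of −64.5 points (pooled SD 12.7, n = 2 each; adjusted p = 0.0159). This test, used for all ranked genes, is limma on the normal scores of the percentiles with Benjamini-Hochberg adjustment over all 2751 genes. Hsp27 (FBgn0001226, 3L:9384063-9385694) was at percentile 49.5 and 50.8 in dsLaminB, against 95.5 and 99.9 in mock, a difference of −47.6 points (pooled SD 2.28, adjusted p = 0.0217). The Hsp27 peak ranked 1205th and 1182nd in the dsLaminB lists, against 109th and 2nd in the mock lists.

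Further upstream in the same cluster, at cytological position 67B, Hsp67Bc and Hsp22 shared their peaks with CG4456. They were at percentile 14.1 and 11.5 in dsLaminB, against 59.9 and 76.9 in mock (difference −55.5 points, pooled SD 8.60, adjusted p = 0.0224). In mock a single peak of 5578 bp in replicate 1 and 5469 bp in replicate 2 ran from Hsp67Bc across Hsp22 and CG4461 to Hsp26. In dsLaminB this stretch was broken into short peaks of 673 and 730 bp at the Hsp67Bc end and 405 and 415 bp at Hsp26, with a further piece of 157 bp over Hsp22 in replicate 2 and no peak over CG4461 in either library. Hsp26, which shares the wide mock peak, was at percentile 47.4 and 39.4 in dsLaminB, against 59.9 and 76.9 in mock, and did not pass the test (adjusted p = 0.247). The siAGO2 libraries had a peak of 3759 bp over CG4461 and Hsp26 in siAGO2 replicate 2 and of 1520 bp in siAGO2 replicate 1. At the Hsp67Bc end their peaks were short as in dsLaminB, of 780 bp in siAGO2 replicate 1 and 783 bp in siAGO2 replicate 2. Hsp67Ba, within the cluster, had no peak in any of the 4 libraries.

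**Figure D1:**
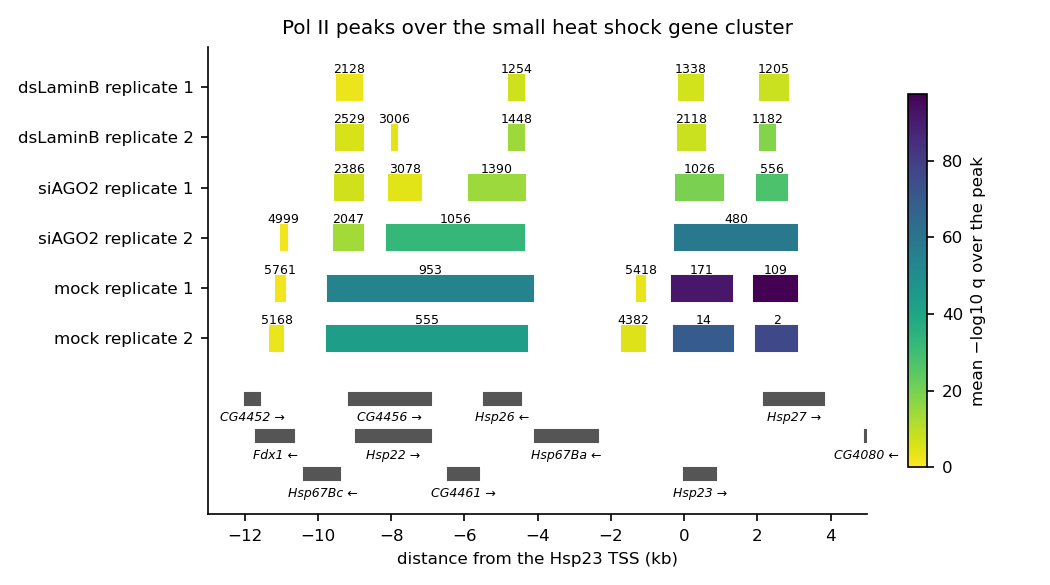
Peaks of each library over the heat shock gene cluster at 67B, as bars by distance from the Hsp23 TSS in kb; bar colour is the mean −log10 q over the peak, the number above it is its rank in its own list, and grey boxes are protein-coding genes with arrows for their direction. Short weak bars in the dsLaminB libraries stand where the mock libraries have a 5578 and a 5469 bp peak, and the Hsp23 bar ranks 1338th and 2118th in dsLaminB, against 171st and 14th in mock.

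Hsp68 (FBgn0001230, 3R:24055080-24057310), on another chromosome arm, also fell. It was at percentile 17.9 and 8.60 in dsLaminB, against 55.2 and 68.5 in mock (difference −48.6 points, pooled SD 8.13, adjusted p = 0.0357). Its peak covered 313 and 451 bp in dsLaminB, against 3184 and 3062 bp in mock. Of the 22 genes in the heat shock list 13 were ranked: 5 fell, 1 rose (Hsp83) and 7 did not pass, beside 1.16% lower and 1.89% higher over all genes. The median change of the list was −7.90 points, beside −0.16 points over all genes. The following members did not pass. Hsc70-3, of the endoplasmic reticulum, changed by −1.07 points, Hsp60A, of mitochondria, by 7.96, Hsc70-4 by 24.2 and the inducible Hsp70Ba by 36.0. Hsp70Ba has near-identical copies in the genome, so its reads may be shared or lost at the mapping filter and its value is uncertain.

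When a peak's −log10 q was first adjusted for its width within each library, an alternative chosen after seeing the data, 6 of the 13 heat shock genes fell and none rose, with a median change of −53.5 points. Hsp83 then changed by −23.6 points (adjusted p = 0.0521) and not upwards. Hsp83 (FBgn0001233, 3L:3192969-3197059) had the widest peak of mock replicate 1: its peak covered 273 and 462 bp in dsLaminB, against 7461 and 5394 bp in mock. Its percentiles were 80.0 and 72.0 in dsLaminB, against 33.4 and 27.4 in mock (difference 45.6 points without the adjustment, pooled SD 4.99, adjusted p = 0.0449). In the broad mode of the peak caller a peak's q is an average over its whole width, so the rank of a wide peak and the width are not separate measures. The part of width in the rise of Hsp83 was not tested beyond this adjustment.

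In all, 52 of the 2751 ranked genes rose (1.89%) and 32 fell (1.16%) at an adjusted p of at most 0.05, 84 in either direction (3.05%), on 43 and 25 distinct peak sets, and an unadjusted p under 0.05 was reached by 529 (19.2%). These tests are limma with Benjamini-Hochberg adjustment. All 84 had both dsLaminB percentiles on the same side of both mock percentiles. By a looser description with no test, 538 genes (19.6%) were higher in both dsLaminB libraries than in both mock libraries by at least 10 points on average and 497 (18.1%) were lower, 37.6% in either direction. The ranks of replicates were closer to each other (Spearman's rho across genes 0.903 for the dsLaminB pair and 0.904 for the mock pair) than ranks across groups (0.772 to 0.861). Genes are not independent replicates, so these coefficients are a description. Leaving out any library left at most 1 call, su(Hw) without dsLaminB replicate 2, and all 84 genes kept their direction. In these fits 1 group is a single library that is assumed to vary like the other group, and a degree of freedom is lost, so the loss of calls does not by itself show that a gene depends on that library. Ranking peaks by fold enrichment in place of −log10 q gave 0 calls, with 362 genes at an unadjusted p under 0.05, and again all 84 kept their direction.

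**Figure D2:**
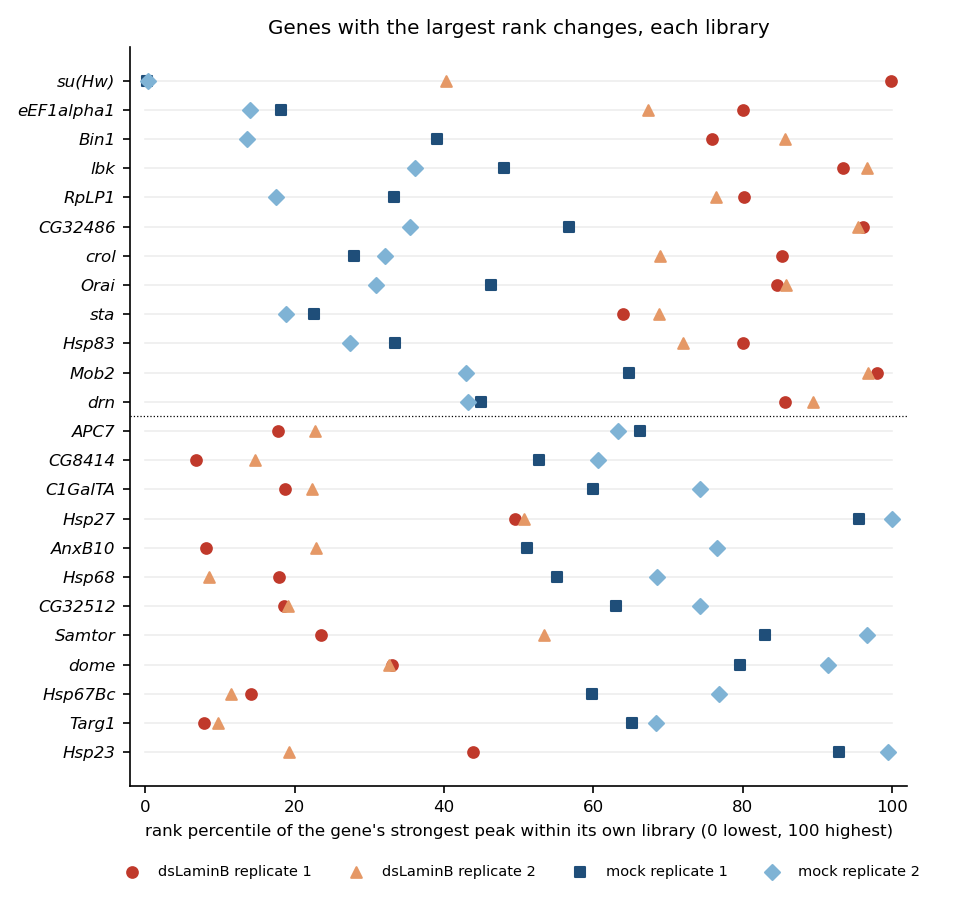
Rank percentile in each library (points) of the 12 protein-coding genes with the largest rise, above the dotted line, and the 12 with the largest fall, below it, in dsLaminB against mock. In every gene both dsLaminB points lie on the same side of both mock points; Hsp23 is at 43.9 and 19.3 in dsLaminB, against 92.9 and 99.4 in mock.

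Among cytosolic ribosomal protein genes, 4 of 61 ranked members rose, none fell and 57 did not pass, beside 1.89% higher and 1.16% lower over all genes. The median change was 4.03 points, beside −0.16 points over all genes. RpLP1 (FBgn0002593, 2L:419952-420864), an acidic stalk protein of the large subunit, was at percentile 80.1 and 76.5 in dsLaminB, against 33.3 and 17.6 in mock (difference 52.9 points, pooled SD 8.08, adjusted p = 0.0332). RpL28 was at 63.0 and 64.5 in dsLaminB, against 22.9 and 18.8 in mock (adjusted p = 0.0449), and its change was −2.25 points (adjusted p = 0.933) when ranks were adjusted for width. RpL14 was near the bottom of the mock ranking: it was at 31.7 and 41.2 in dsLaminB, against 1.84 and 2.67 in mock (adjusted p = 0.0185). The fourth was sta, the small-subunit protein RpSA, at 64.0 and 68.8 in dsLaminB, against 22.6 and 18.9 in mock (adjusted p = 0.0434), and its change was −25.1 points with that adjustment. The mock peaks of sta, of 4013 and 7601 bp, also cover its neighbour rush, which was at 0.87 and 0.27 in dsLaminB, against the same 22.6 and 18.9 in mock, and was called lower (adjusted p = 0.0159). A rise and a fall thus rest on the same mock peaks, where the dsLaminB libraries have separate peaks. RpL7A had the largest change downwards, at 25.1 and 21.3 in dsLaminB, against 44.1 and 45.9 in mock, which did not pass (adjusted p = 0.252). Ribosomal protein peaks were wide in mock and narrow after knockdown, with a median width at ranked members of 303 and 593 bp in dsLaminB, against 1519 and 1427 bp in mock. With ranks adjusted for width, no ribosomal protein gene passed, and the median change remained 4.03 points.

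eEF1alpha1 (FBgn0284245, 2R:11891135-11895762) was at percentile 80.1 and 67.3 in dsLaminB, against 18.2 and 14.1 in mock (difference 57.5 points, pooled SD 6.71, adjusted p = 0.0217). It was the only one of 18 translation factors to pass. When only peaks within 500 bp of a TSS were used, its difference was −9.67 points (adjusted p = 0.491), so its rise depends on which peak stands for the gene. Cyt-c-p, the somatic cytochrome c, was at 61.1 and 49.3 in dsLaminB, against 13.6 and 13.9 in mock (adjusted p = 0.0449). None of the 15 ranked genes of the oxidative phosphorylation list passed. Mitochondrial ribosomal protein genes could hardly be ranked: 2 and 18 of 73 had a peak in dsLaminB, against 67 and 58 in mock.

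The largest rise of all was at su(Hw) (FBgn0003567, 3R:14304455-14308589), which encodes a zinc finger protein of the gypsy insulator. It was at percentile 99.9 and 40.3 in dsLaminB, against 0.20 and 0.38 in mock (difference 69.8 points, pooled SD 29.8, adjusted p = 0.0229). Its peak in dsLaminB replicate 1, ranked 2nd in the list, is one of the 3 that stand apart in that library; without that replicate the difference was 59.6 points (adjusted p = 0.062), and without mock replicate 1 or mock replicate 2 the adjusted p was 0.223 or 0.372. The TSS of su(Hw), at 3R:14308589, lay under the gene's peak in 2 of the 4 libraries. The peak of dsLaminB replicate 1 covers 3R:14304715-14305511, toward the 3′ end of the gene. There dsLaminB replicate 2 had a fold enrichment of 6.18, against no peak in either mock library. Other peaks stand for su(Hw) in mock, so its rise rests on a change of peak. At w, the eye pigment transporter gene, the same position had fold enrichments of 46.9 and 7.22 in dsLaminB, against 8.38 and 1.92 in mock, and w was not called. The other 5 ranked insulator genes did not pass.

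Among genes that mark blood cells and basement membrane, 1 of 16 passed, ush, a cofactor of the blood GATA factor srp. It was at percentile 97.6 and 95.9 in dsLaminB, against 78.8 and 65.4 in mock (difference 24.6 points, pooled SD 6.72, adjusted p = 0.0449). The ush TSS lay under the peak that stands for it in 3 of the 4 libraries. In dsLaminB replicate 2 that peak, of 424 bp, has the width of the peak over the cbt TSS. The cbt peak there reached 175 bp upstream and 248 bp downstream, and cbt, called higher itself, lies within the ush body. Of the list, 8 of its 16 members were higher in both dsLaminB libraries than in both mock libraries by at least 10 points and 1, Pvr, was lower, beside 19.6% and 18.1% of all genes, with a median change of 8.29 points. Of these, the collagen IV gene vkg was at 73.0 and 62.4 in dsLaminB, against 40.7 and 31.1 in mock (adjusted p = 0.133), and SPARC, LanB1 and LanB2 changed by 30.4, 27.4 and 17.4 points. Other matrix genes of the list, Pxn among them, changed by under 10 points, with LanA at 5.60 points, trol at 5.54 and Ppn at −8.18. Pvr, the PDGF and VEGF receptor of hemocytes, was at 76.2 and 83.7 in dsLaminB, against 92.7 and 96.2 in mock (adjusted p = 0.163). Among 11 immune genes only Rel, the NF-kappaB factor of the Imd pathway, passed. Rel shares its peaks with Nmdmc and was at 55.6 and 56.9 in dsLaminB, against 5.56 and 20.5 in mock (adjusted p = 0.0449). The TSS of Rel and that of Nmdmc each lay under the shared peak in 1 of the 4 libraries.

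Of 32 ranked signalling genes 2 rose (Rel again, and wgn, a TNF receptor) and 1 fell, beside 1.89% higher and 1.16% lower over all genes. The gene that fell was dome, the receptor of the JAK/STAT pathway, at percentile 33.1 and 32.6 in dsLaminB, against 79.6 and 91.4 in mock (difference −52.7 points, pooled SD 5.88, adjusted p = 0.0272). The mock peaks that stand for dome, of 761 and 855 bp, hold the TSS of its neighbour et and run over the 3′ end of dome. In dsLaminB the et peaks reached 112 and 157 bp upstream of that TSS and stopped short of dome. Other peaks stand for dome there, so its fall rests on a change of peak. With peaks near a TSS only, dome changed by 9.79 points (adjusted p = 0.599). Socs36E, the feedback inhibitor of the same pathway, was at 89.1 and 89.2 in dsLaminB, against 78.8 and 97.2 in mock, and the groups overlap. Traf4 was at 68.2 and 77.8 in dsLaminB, against 59.3 and 81.1 in mock, and cv-2 at 95.1 and 94.5, against 93.1 and 66.1. These 3 loci and betaTub60D, vri, AGO2 and Abd-B did not pass. Among them Abd-B, a Hox gene, had the smallest adjusted p (0.065), at percentile 7.76 and 11.8 in dsLaminB, against 0.16 and 1.65 in mock.

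None of 11 glycolysis genes passed. Of these, 6 were lower in both dsLaminB libraries than in both mock libraries by at least 10 points and 2 (Pgk and Eno) were higher, beside 18.1% lower and 19.6% higher over all genes, with a median change of −12.0 points, beside −0.16 points over all genes. Ldh, which reduces pyruvate to lactate, was at percentile 26.5 and 34.1 in dsLaminB, against 55.9 and 74.0 in mock (adjusted p = 0.11). None of 14 ecdysone response genes passed either. Within that list usp, the partner of the ecdysone receptor, was at 2.09 and 5.29 in dsLaminB, against 21.5 and 26.9 in mock (adjusted p = 0.061), and Hr3 was at 49.7 and 41.6 in dsLaminB, against 16.5 and 12.9 in mock (adjusted p = 0.081). Of the nuclear lamina list 4 of 9 genes were ranked and none passed. The LINC complex gene koi was at 70.6 and 54.1 in dsLaminB, against 38.0 and 34.7 in mock, and LamC, the A-type lamin, was at 36.0 and 37.7, against 45.1 and 35.4. No member of the proteasome, aminoacyl-tRNA synthetase, nuclear pore, pausing factor, Polycomb and trithorax, spliceosomal snRNA, cell cycle, tubulin and actin or RNA interference lists passed.

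**Figure D3:**
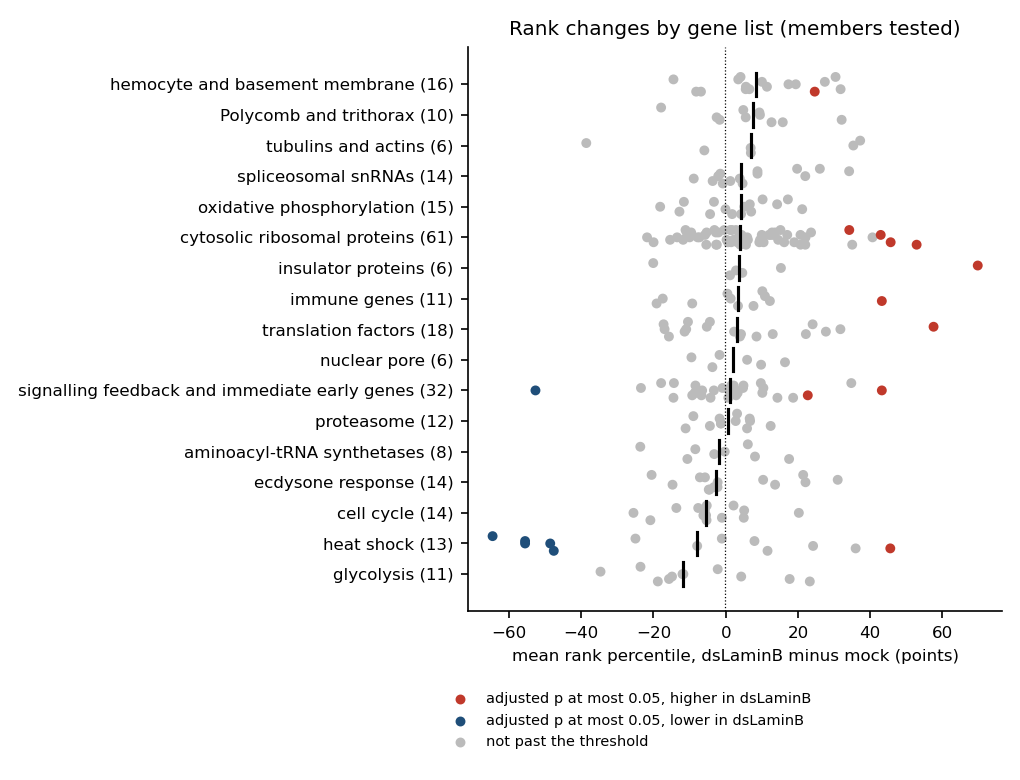
Difference in mean rank percentile, dsLaminB minus mock, of each ranked member (points) of 17 gene lists with at least 5 ranked members, the number of members in brackets; black bars are list medians and the dotted line is the median of all ranked genes. Blue points, which fell, gather in the heat shock list with 5 members, and red points, which rose, include 4 ribosomal protein genes.

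Outside these lists, the largest changes were at genes of mixed function. Targ1 and Targ2, which share their peaks, were at percentile 7.82 and 9.74 in dsLaminB, against 65.2 and 68.4 in mock (difference −58.0 points, pooled SD 1.90, adjusted p = 0.0159). Samtor, a sensor of S-adenosylmethionine in TOR signalling, CG32512, AnxB10 (an annexin), C1GalTA (a glycosyltransferase), CG8414 and APC7 (a subunit of the anaphase-promoting complex) fell by 44.5 to 51.3 points. CG8414 is a further gene whose direction depends on the peak chosen, with a difference of 6.08 points from peaks near a TSS. The TSS of APC7 lay under the peak that stands for it in 0 of the 4 libraries. At the top of the mock ranking CG31075 fell to percentile 72.1 and 67.8 in dsLaminB, against 99.9 and 99.9 in mock, with the smallest adjusted p of all (0.00418), and Fas2, a neural cell adhesion gene, fell to 82.1 and 83.8 in dsLaminB, against 98.7 and 99.7 in mock (adjusted p = 0.0272). Their peaks ranked 3rd in both mock lists for CG31075 and 32nd and 8th for Fas2.

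Of the genes that rose, lbk was at percentile 93.4 and 96.6 in dsLaminB, against 48.1 and 36.1 in mock (difference 52.9 points, pooled SD 6.20, adjusted p = 0.0159). CG32486 was at 96.2 and 95.4 in dsLaminB, against 56.8 and 35.5 in mock (adjusted p = 0.0159). Bin1, with sra, was at 75.9 and 85.7 in dsLaminB, against 39.0 and 13.7 in mock (pooled SD 13.6, adjusted p = 0.0383). Orai (the store-operated calcium channel, with olf186-M), crol, Mob2 and drn rose by 43.5 to 47.1 points. The peak shared by Orai and olf186-M held the TSS of olf186-M in all 4 libraries and that of Orai in 0. crol changed by −18.1 points when only peaks near a TSS were used. Called genes reached from the bottom of the ranking, such as pygo at 25.1 and 21.6 in dsLaminB, against 2.13 and 0.64 in mock, to the top, such as RhoL at 99.6 and 99.9, against 93.0 and 93.2. Ranking required a peak in both dsLaminB lists. Of genes covered by both mock lists, 1 of 675 in the lowest decile of mock rank met this, against 656 of 675 in the highest. Higher dsLaminB ranks of genes at the bottom in mock, among them pygo, RpL14, su(Hw) and Abd-B, can reflect this selection. Its part was not tested.

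The called genes are described here by length and peak width, with no test. Their median length was 5966.5 bp for those that rose and 2881.5 bp for those that fell, beside 5367 bp for all ranked genes. With genes split by length into 5 groups of 550 or 551, 8, 8, 11, 10 and 15 genes rose and 6, 15, 6, 4 and 1 fell, in order of the shortest to the longest group, beside 1.89% and 1.16% over all genes. Median peak width at the genes that rose was 401 and 530.5 bp in dsLaminB, against 1480.5 and 1465 bp in mock. At the genes that fell it was 312.5 and 446.5 bp in dsLaminB, against 768 and 795.5 bp in mock. Over all ranked genes it was 319 and 437 bp in dsLaminB, against 823 and 710 bp in mock. The median log2 change in width was −1.45 at genes that rose, −0.94 at genes that fell and −0.82 over all, and across genes the rank change and the width change had a Spearman's rho of −0.22. A TSS with a divergent neighbour within 500 bp was found at 38.5% of genes that rose, 40.6% of those that fell and 35.5% of all.

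Chromosome position was examined because the lamina holds gene-poor chromatin at the nuclear edge. Chromosome arms differed little: the median change of ranked genes lay between −0.65 points on 3L and 0.84 points on the X. Of the X-linked genes, 8 of 532 rose (1.5%) and 8 fell (1.5%), and of autosomal genes 44 of 2219 rose (1.98%) and 24 fell (1.08%), beside 1.89% and 1.16% over all genes. The median percentile of X-linked minus autosomal genes was −2.31 and 1.11 points in dsLaminB, against −4.80 and −5.24 in mock, a difference of 4.42 points (pooled SD 1.72, n = 2 each; two-sided exact permutation p = 0.33, the smallest that 2 libraries against 2 can give). This difference was −0.46 points when peaks were ranked by fold enrichment. Genes within 5 Mb of a centromere, with all of chromosome 4, differed from other genes in median percentile by −5.56 and −3.60 points in dsLaminB, against −3.57 and −2.92 points in mock, a difference of −1.34 points (pooled SD 1.03, exact p = 0.33).

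Genes in gene-poor surroundings (at most 13 protein-coding TSSs within 50 kb on either side) ranked above those in gene-rich surroundings (more than 19) in every library. The gap was 17.2 and 19.2 points in dsLaminB, against 17.4 and 17.1 points in mock, a difference of 0.98 points (pooled SD 1.04, exact p = 0.667), and it changed sign under 4 of the alternatives. By counts, with no test, in gene-poor surroundings 26 of 1020 rose (2.55%) and 6 fell (0.588%), and in gene-rich surroundings 10 of 807 rose (1.24%) and 15 fell (1.86%), beside 1.89% and 1.16% over all. Of 107 windows of 1 Mb with at least 10 ranked genes, 89 had a median change within 5 points of 0 and 1 was beyond 10 points. This was 3R:15000001-16000000, with a median of −12.6 points over 26 genes and no called gene. The window 2L:13000001-14000000 held 5 of 27 genes called higher, with a median of 8.80 points, and the window 3L:9000001-10000000, with the 67B cluster, held 5 of 34 genes called lower, with a median of −2.68 points. No window held more calls in 1 direction. Those on 2L are kuz (a protease that cleaves Notch) with B4, p38b (a stress kinase) with CG9008, and CG31729. Chromosome 4 held 0.158% and 0.291% of the peaks in dsLaminB, against 0.654% and 0.482% in mock, a difference of −0.343 percentage points (pooled SD 0.109, exact p = 0.33), and only 4 of its genes could be ranked.

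Peaks were narrower in dsLaminB than in mock. Median width was 300 and 351 bp in dsLaminB, against 540 and 481 bp in mock (325.5 ± 36.1 bp in dsLaminB and 510.5 ± 41.7 bp in mock, SD, n = 2 each; exact p = 0.33). The siAGO2 lists held 4089 and 5381 peaks with median widths of 361 and 464 bp, and 5.84% and 16.7% of peaks were over 1000 bp, beside 2.53% and 5.80% in dsLaminB and 21.0% and 17.8% in mock. dsLaminB replicate 2, with 4124 peaks and 351 bp, is close to siAGO2 replicate 1, with 4089 peaks and 361 bp. At equal list length, the 2531 strongest peaks of each library had medians of 300 and 382 bp in dsLaminB, against 684 and 582 bp in mock. Peaks over 3000 bp numbered 1 and 3 in dsLaminB, against 35 and 24 in mock. In every rank bin of 500 peaks that the libraries share, both dsLaminB medians were below both mock medians. A peak's edges are set by where signal passes a threshold, and that moves with depth and enrichment, whose part in the narrowing was not tested.

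**Figure D4:**
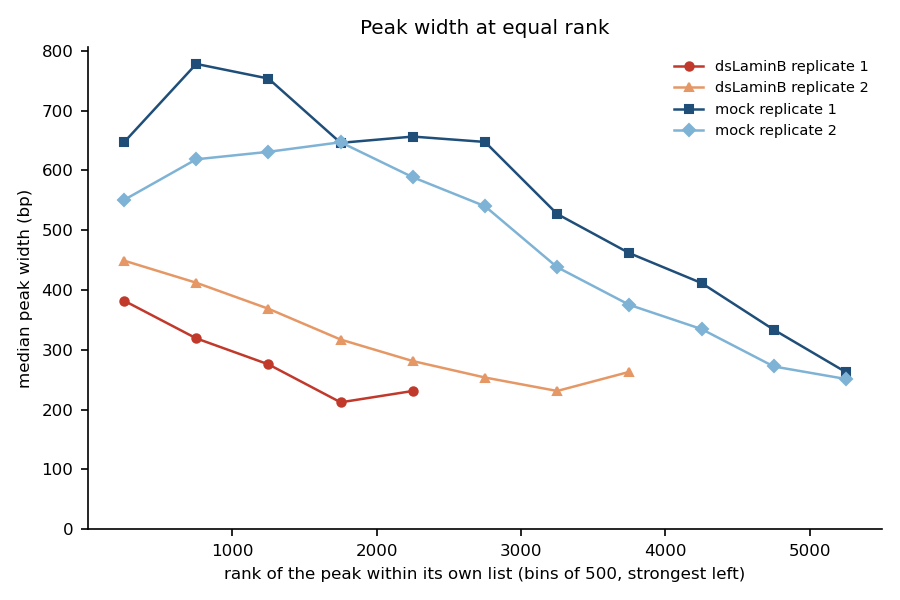
Median peak width in bp (vertical axis, from 0) in bins of 500 peaks by rank within each library's own list, strongest peaks on the left; the lines stop where a list ends. Among the 500 strongest peaks the medians were 382 and 449 bp in dsLaminB, against 647 and 550.5 bp in mock.

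At the 2328 merged sites with a peak in all 4 libraries, 451 (19.4%) were narrower in dsLaminB by limma on log2 covered bases and 0 were wider. Both dsLaminB libraries were narrower than both mock libraries at 2148 sites (92.3%) and wider at 3 (0.129%). The median ratio of widths was 0.559. Without mock replicate 1 or without mock replicate 2 no site passed. Without dsLaminB replicate 2 there were 1488 narrower and 7 wider sites. The site at RpL14 covered 195 and 262 bp in dsLaminB, against 3451 and 2379 bp in mock (log2 difference −3.66 ± 0.31, SE; adjusted p = 0.0233). The site at Sec13, a gene of the nuclear pore and of COPII coats, covered 147 and 198 bp in dsLaminB, against 1752 and 1935 bp in mock (adjusted p = 0.0233). The other sites among the 5 largest falls were at x16 (a splicing factor gene), lt and vtd (the cohesin subunit Rad21), with log2 differences of −3.50, −3.45 and −3.33. The 3 sites that were wider in both dsLaminB libraries lay at CD98hc, CG14621 and the collagen gene Col4a1, by log2 differences of 0.33, 0.20 and 0.03, and none passed.

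To see how far peaks reached on each side of the promoter, 288 TSSs with no other gene's TSS within 2000 bp and with a peak in all 4 libraries were measured. Peaks reached 206 and 248 bp downstream of the TSS in dsLaminB, against 382 and 331 bp in mock (medians; difference −129.5 bp, pooled SD 33.0, exact p = 0.33). Upstream they reached 105 and 123.5 bp in dsLaminB, against 193.5 and 168 bp in mock (difference −66.5 bp, pooled SD 15.8, exact p = 0.33). Reach was shorter in both dsLaminB libraries than in both mock libraries at 83.7% of these TSSs downstream and 84.4% upstream. The largest downstream loss was at Inos, the inositol phosphate synthase gene, where peaks ended 388 and 316 bp from the TSS in dsLaminB, against 1467 and 3295 bp in mock. Inos nevertheless rose in rank, to percentile 92.8 and 94.3 in dsLaminB, against 62.0 and 57.3 in mock (adjusted p = 0.0383), and so did wgn, whose peak ended 423 and 445 bp downstream in dsLaminB, against 1291 and 1284 bp in mock.

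Of the 6743 genes that both mock lists covered, 2094 (31.1%) had none in either dsLaminB library. Most were weak in mock: the share was 92.0% in the decile of genes with the lowest mock rank and 1.78% in the highest decile, and 238 of the 2094 lay in the upper 5 deciles. dsLaminB replicate 1 lacked a peak at more genes than replicate 2 in every decile. When the same number of top peaks was taken from each list, 305 genes were absent from both dsLaminB lists, of which 65 were in the upper 5 deciles.

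**Figure D5:**
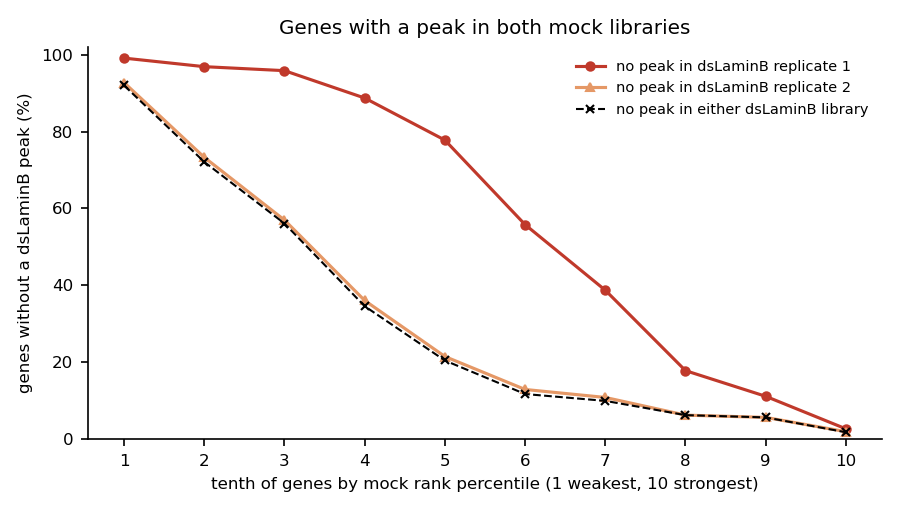
Percentage of genes covered by both mock lists that had no peak in dsLaminB replicate 1, in dsLaminB replicate 2 or in either, by decile of mock rank (1 weakest, 10 strongest). The share without a peak in either falls across the deciles, with 92.0% in the weakest decile and 1.78% in the strongest.

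A small set of genes under strong mock peaks had no peak over their body after knockdown, and 12 of the highest decile were among them. Of these, the 5 strongest that code for protein and span 500 bp or more are described, and 3 non-coding genes ranked above the last of them. Herc4, a ubiquitin ligase gene, had no peak in dsLaminB and ranked 213th and 158th in mock. CG6785 had none in dsLaminB and ranked 145th and 360th in mock, with peaks of 1508 and 1302 bp. Gad1, which makes the transmitter GABA, had none in dsLaminB and ranked 143rd and 410th in mock. Its mock peaks, of 545 and 558 bp, hold the TSS of the neighbour Faa and only reach over the 3′ end of Gad1. Faa kept a peak in both dsLaminB libraries, reaching 92 and 119 bp upstream of its TSS, against 200 and 144 bp in mock. A gene without a dsLaminB peak thus need not mean a mock peak without a counterpart. CG9406 and the serpin gene Spn42Db, both without a dsLaminB peak, ranked 352nd and 206th, and 382nd and 372nd, in mock. In the siAGO2 libraries Gad1 had peaks at rank 125 and 665 and Herc4 at rank 241 in replicate 2 only, while CG6785, CG9406 and Spn42Db had none. By gene list, 40 of 57 mitochondrial ribosomal protein genes covered by both mock lists had none in dsLaminB (70.2%), beside 5 of 87 cytosolic ribosomal protein genes (5.75%), 1 of 15 heat shock genes (6.67%), 0 of 14 ecdysone genes and 31.1% of all genes. The median mock percentile was 29.8 for the mitochondrial list and 60.6 for the cytosolic list.

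Set directly against siAGO2, the other knockdown, dsLaminB differed in rank at 0 of 2726 genes by limma, and 126 (4.62%) had an unadjusted p under 0.05. The 51 genes that rose against mock and could be ranked in all 6 libraries had median percentiles of 93.5 and 91.9 in dsLaminB, 77.4 and 79.0 in siAGO2, and 57.9 and 50.0 in mock. The 31 that fell had medians of 18.3 and 21.8 in dsLaminB, 49.1 and 55.5 in siAGO2, and 64.9 and 76.7 in mock. Both siAGO2 libraries lay above both mock libraries at 42 of the 51 and below both at 0. At the 31 that fell they lay below both mock libraries at 25 and above both at 0. The share of all 2726 genes at which this holds was not counted. The 51 and 31 genes were chosen with these same mock values, and that choice favours siAGO2 values on the dsLaminB side of mock. These counts are therefore no test of a shared change. On this scale of genes ranked in all 6 libraries Hsp23 was at 43.5 and 18.9 in dsLaminB, 56.2 and 79.9 in siAGO2, and 92.8 and 99.4 in mock. Hsp68 was at 17.6 and 8.24 in dsLaminB, 41 and 25.2 in siAGO2, and 54.8 and 68.2 in mock. Other genes were as low in siAGO2 as in dsLaminB. Hsp67Bc was at 13.7 and 11.2 in dsLaminB, 12.2 and 19.5 in siAGO2, and 59.5 and 76.7 in mock. For dome the values were 32.7 and 32.2, 16.5 and 17.7, and 79.5 and 91.3. Both knockdowns share the mock libraries, so their values are given side by side and were not compared as independent results. A count of 0 in this comparison does not show that the knockdowns act alike.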

How the data were processed

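Pol II ChIP-seq was done in Kc167 cells. Per the study's methods and the labels' processing notes, the authors trimmed reads with cutadapt (1.10 in the notes), aligned them to dm6 with Bowtie2, kept a mapping quality of at least 20, removed duplicates with Picard (2.11.0 in the notes) and called broad peaks per replicate against the paired input with MACS2 2.1.1.20160309. The deposited lists hold a score, a fold enrichment (a ratio to local background), −log10 p and −log10 q per peak, each averaged over the peak, so width and rank are linked. The deposited score and p-value were not used, and input libraries enter only through the authors' peak calling. Read depth is not given in the sources used here, so the precision of a value is known only from the 2 libraries per group.

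Genes came from Ensembl release 115 and positions count from 1. A gene took its highest −log10 q over at least 1 bp of its body. Genes with a peak in all 4 lists were converted to percentiles and normal scores per library and tested with limma 3.58.1 (R 4.3.3), adjusted p at most 0.05. Site widths were tested on log2 covered bases. Single values were tested with two-sided exact permutation tests. On simulated data for this comparison (2751 genes), 94% and 98% of shifts by 2 normal-score units down and up were recovered, 42% and 40% of shifts by 1 unit, and 6.80% of calls were false. The simulated noise was independent and of equal spread for every gene, whereas real genes can share peaks. The 6.80% therefore does not measure the share of false calls in the real lists. Named genes were the 12 largest changes per direction among called protein-coding genes of at least 500 bp, the 5 highest lost genes (protein-coding and of at least 500 bp), the 5 largest width changes, the extreme members of each list and 8 loci of the study; any further gene was picked with its values in view. The members and gene lists were chosen with earlier results of these data known. Alternatives are given in the closing section.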

Additional observations from a re-analysis of the deposited data

How the results depend on the processing

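Precision is limited by 2 libraries per group, by unknown depth and by ranks that come from width-averaged values. The numbers of genes that rose and fell, 52 and 32 as reported, were 11 and 16 on percentiles in place of normal scores, 0 and 0 with peaks ranked by fold enrichment, 378 and 226 over 6743 genes with absent peaks tied lowest, 7 and 8 with all 6 libraries in one fit, and 19 and 26 with ranks adjusted for peak width (an alternative chosen after seeing the data, as were the list counts without single libraries). In that last setting 27 of the 84 called genes remained called. The causes were not tested. In the 5 remaining settings without a block or an omission (peaks near a TSS, −log10 q of at least 5, equal list length, protein-coding genes, merged sites) the counts were 46 to 71 and 24 to 46. Leaving out single libraries gave 0 to 1 genes that rose and 0 to 0 that fell.

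Libraries with the same replicate number did not deviate together (correlation 0.0007 for ranks and −0.02 for widths). This does not show whether they were prepared together. With a replicate block, where a degree of freedom is lost, the counts were 133 and 90 for rank and 631 narrower sites. In that setting 0 genes were called in dsLaminB against siAGO2.

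Genes with separate groups, 538 higher and 497 lower, numbered 1441 and 872 with absent peaks tied lowest, and 631 to 908 and 640 to 883 when single libraries were left out. Narrower sites numbered 118 with all 6 libraries in one fit, and 0 to 1488 when single libraries were left out, with 0 to 7 wider. Median width, downstream reach and upstream reach kept their direction in each setting, with differences of −332.2 to −155.5 bp, −156 to −102 bp and −79.5 to −35 bp. The X contrast was −0.46 points by fold enrichment and 0.74 to 4.64 points without single libraries. The centromere contrast was 0.87 points with 10 Mb and −2.78 to 0.15 without single libraries, where leaving out mock replicate 2 reversed it. The gene density contrast was −0.89 points with peaks near a TSS, −0.56 with equal list length, −0.40 with 200 kb, and −0.25 to 2.1 without single libraries, where leaving out dsLaminB replicate 2 reversed it. Lost genes numbered 305 at equal list length, of which 65 in the upper 5 deciles of mock rank, where peaks near a TSS left 139. Without single libraries they numbered 2145 to 3941 and 253 to 850, the highest without dsLaminB replicate 2. Calls against siAGO2 were 0 to 1 without single libraries, 1 only without dsLaminB replicate 2.

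With peaks near a TSS, eEF1alpha1 changed by −9.67, crol by −18.1, dome by 9.79 and CG8414 by 6.08 points, and with ranks adjusted for width sta changed by −25.1, Hsp83 by −23.6 and RpL28 by −2.25 points. In the settings run on genes, these are all the reversals among the called genes that could be ranked. That was 76 of the 84 with peaks near a TSS, 59 with −log10 q of at least 5 and 65 at equal list length.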
